A study of Mus musculus with 28 samples.

Results

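Mouse E14 embryonic stem cells that had spent 96 h without 2iL were compared with cells that had spent 48 h without it. Libraries were taken by the time at the end of their titles, 4 at each time, which makes 8 of the 28 libraries of the study. E14 is an established line derived from a blastocyst. Both groups were grown on gelatin in N2B27, a serum-free medium, with 3 µM of the GSK3 inhibitor CHIR99021, 1 µM of the MEK inhibitor PD0325901 and the cytokine LIF, together called 2iL. On the day after plating as single cells the medium was changed to N2B27 alone, and no transgene or mutation is named for either group. The other 20 libraries are cells kept in 2iL, cells at 24 h and 120 h of withdrawal, and cells given 2iL for another 24 h after 48 h or 96 h. RNA was read by 3′ digital gene expression sequencing, which counts the ends of polyadenylated transcripts. The titles number the experiments 1 to 4, with all groups present once in each. Nothing else says that the cultures were separate, so p-values rest on the spread between libraries of these experiments, which may be technical. For genes, constant differences between experiments are taken out, and the spread that remains is pooled over all 7 groups.

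Embryonic stem cells held in 2iL resemble the naive epiblast of the blastocyst. Without it they pass through a formative state, close to the epiblast around implantation, in which naive factors are low and regulators such as Otx2, Pou3f1 and the de novo DNA methyltransferases are high. In serum-free medium without added factors many cells then take up neural identity, marked by Sox1, the earliest transcription factor of the neural plate, and, in its anterior part, by Six3. The comparison asks which genes separate the later from the earlier of these stages.

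The 96 h libraries held 2145440 to 2553721 gene counts and the 48 h libraries 1671969 to 2161363. In the 96 h libraries 14187 to 14697 genes had at least 1 count, against 13570 to 14029 in the 48 h libraries (two-sided exact permutation test, p = 0.0286, the smallest that 4 against 4 allows). Mitochondrially encoded transcripts made up 1.78% ± 0.139 of counts at 96 h and 2.44% ± 0.511 at 48 h (SD, n = 4 each, exact permutation p = 0.0571). Alignments at more than 1 place, which were not counted, made up 53.5% to 56.7% of the listed reads at 96 h and 57.8% to 60.1% at 48 h. The part that these differences between the groups play in the results was not tested. The 96 h library of experiment 3 stood apart from the other 3. Its log2 CPM correlated with theirs at 0.929 to 0.952 across 11080 genes, while the other 3 correlated among themselves at 0.952 to 0.967. Its mean correlation with the 48 h libraries was 0.852 and with the 120 h libraries 0.956, against 0.903 to 0.925 and 0.92 to 0.941 for the other 96 h libraries. Genes are not independent replicates, so these values are descriptions. Results are therefore given with this library and, where it matters, without it.

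Between 48 h and 96 h about as many genes rose as fell. Of 11080 genes tested, 2750 were called (24.8%). Of all tested, 1451 rose (13.1%) and 1299 fell (11.7%), where a call is a Benjamini-Hochberg adjusted p under 0.05 in edgeR's quasi-likelihood test with the experiment as block. With library totals in place of TMM scaling (which corrects for differences in RNA composition) the split was 1768 and 1001. Among called genes, 914 rose and 537 fell by at least 1 on the log2 scale, and the median over all genes was 0.02. All 96 h libraries lay above all 48 h libraries for 1419 genes (12.8%) and below them for 1320 (11.9%). Without the 96 h library of experiment 3, 1061 of 11311 genes rose (9.38%) and 965 fell (8.53%), and 1025 of the rises and 928 of the falls above were called in both. That library was the highest of the 96 h libraries in 60.7% of the genes that rose and the lowest in 57.7% of those that fell. The comparison of 120 h with 24 h shares no library with this one, although it comes from the same experiments and fit. In it 24.5% of all tested genes were called higher and 22.7% lower, and of the genes above 1240 of the 1451 risen were called higher and 1129 of the 1299 fallen lower. Counts of list members below are set against the 13.1% and 11.7% of all genes.

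**Figure D1:**
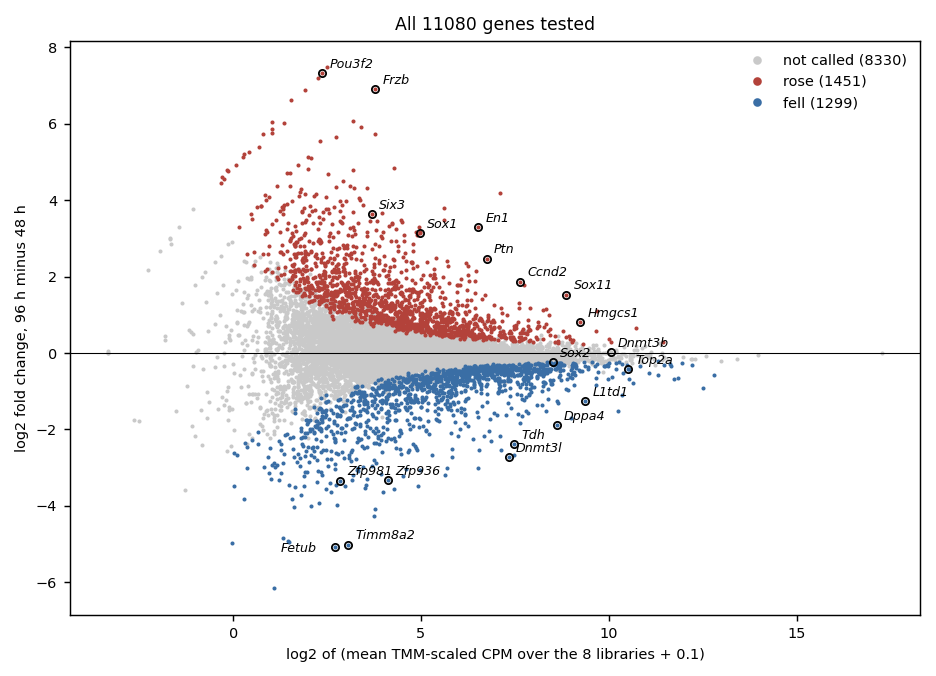
Each point is 1 of the 11080 genes tested, with its log2 fold change (96 h minus 48 h) against the log2 of its mean TMM-scaled CPM (counts scaled to a common library total) over the 8 libraries plus 0.1. The 1451 risen genes reach further from 0 than the 1299 fallen ones, and fitted values of genes with almost no counts in a group, such as Pou3f2, depend on the prior count of the fit and are no measured fold.

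The label of the comparison was checked with Sox1 and Six3. Sox1 (chromosome 8, 12395295 to 12400126, GRCm38) had 22.9, 23.9, 135 and 47.4 CPM at 96 h in experiments 1 to 4, against 6.74, 8.39, 3.05 and 3.07 CPM at 48 h. Six3 (chromosome 17, 85613608 to 85629302), a homeobox factor of the forebrain and eye field, had 14.7, 21.8, 41 and 17.4 CPM at 96 h, against 0.518, 1.48, 2.44 and 3.07 CPM at 48 h. Every 96 h library stood above every 48 h library for both genes, and experiment 3 held the highest value. Sox1 rose by 3.14 ± 0.48 (log2 fold change ± SE, adjusted p = 7.33e-06), or 2.53 without the 96 h library of experiment 3. Six3 rose by 3.64 ± 0.63 (adjusted p = 5.3e-05), or 3.14 without it. These are bulk libraries, so a change in the share of cells of a type and a change in RNA per cell cannot be told apart. Exons of Six3 overlap those of Six3os1 on the opposite strand and exons of Sox1 those of Gm25239, and the strand used in counting is not stated, so reads of such pairs may be mixed.

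The start region of Sox1 is shown because several POU-domain factors, whose binding is known to centre on an octamer, are among the genes described here. It is the RefSeq promoter at chr8:12395269-12395568 (GRCm38.p6, plus strand), 250 bases before to 50 after the start, with the octamer ATGCAAAT in capitals.
Sox1: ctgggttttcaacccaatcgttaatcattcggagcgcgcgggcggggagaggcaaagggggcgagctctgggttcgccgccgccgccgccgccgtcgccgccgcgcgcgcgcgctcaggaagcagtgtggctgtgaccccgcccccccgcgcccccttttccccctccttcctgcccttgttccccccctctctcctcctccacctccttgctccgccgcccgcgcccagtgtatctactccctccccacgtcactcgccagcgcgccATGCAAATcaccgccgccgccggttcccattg
The octamer begins at base 269 of the 300. On either strand it occurs in 474 of 27025 promoters of this length (1.75%), and it overlaps no other motif searched. Of the 124 tested genes whose promoter holds it, 18 rose and 18 fell (14.5% each, close to the 13.1% and 11.7% of all genes), and nothing is drawn from the match.

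Neural progenitor genes were mostly higher at 96 h. Of the 23 members of this list, all of which were tested, 15 rose and 1 fell, with a median log2 fold change of 2.08 against 0.02 for all genes. Without the 96 h library of experiment 3 the counts were also 15 and 1 and the median was 1.49. Msi1, an RNA-binding protein of neural stem cells, had 35.3, 28.3, 75.4 and 51.5 CPM at 96 h in experiments 1 to 4, against 7.78, 5.43, 3.66 and 11 CPM at 48 h, and rose by 2.67 ± 0.31 (adjusted p = 1.06e-07). Ptn, which encodes the secreted growth factor pleiotrophin, had 88.5, 77.2, 445 and 131 CPM at 96 h, against 22.8, 20.2, 34.2 and 39.9 CPM at 48 h, and rose by 2.47 ± 0.23 (adjusted p = 2.29e-09). For both genes the groups did not overlap, and the 96 h value of experiment 3 was the highest.

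Among transcription factors, Sox11, a SoxC factor of early neural cells, rose by 1.53 ± 0.24 (adjusted p = 1.31e-05) to 403, 439, 1290 and 731 CPM at 96 h, against 244, 229, 222 and 191 CPM at 48 h. Sox3, which is shared by epiblast and neural plate, averaged 106 ± 32.8 CPM at 96 h and 48.3 ± 11 CPM at 48 h (SD, n = 4 each) and rose by 1.11 ± 0.19 (adjusted p = 4.13e-05). Sox2, which is used in both pluripotent and neural cells, averaged 334 ± 27.1 CPM at 96 h and 394 ± 22.8 CPM at 48 h, without a call (log2 fold change -0.24 ± 0.11, adjusted p = 0.117). The libraries of the 2 times did not overlap for Sox2 either, but its difference was small. Sox21, also of this family, rose by 2.68 ± 0.53 (adjusted p = 0.000257), with 109 CPM in experiment 3 and 8.26 to 18.7 CPM in the other 96 h libraries, against 2.96 to 6.75 CPM at 48 h. Without experiment 3 at 96 h its log2 fold change was 1.87.

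Pou3f2, a POU factor of neural progenitors, had 8.26, 2.43, 25.7 and 4.06 CPM at 96 h and no counts in any 48 h library. Taken at a floor of 3 counts over the 48 h group, its 96 h mean was at least 24.4-fold higher (adjusted p = 1.74e-05). Without experiment 3 at 96 h it was at least 11.8-fold higher. Such a bound covers counting error in the 48 h group only and takes the 96 h mean as measured. Prom1, a membrane protein of neuroepithelial cells, rose by 2.08 ± 0.29 (adjusted p = 1.7e-06), and Cdh2, the N-cadherin of neuroepithelium, by 2.15 ± 0.31 (adjusted p = 2.82e-06). Nes, which encodes the intermediate filament nestin, rose by 0.79 ± 0.24 (adjusted p = 0.016). Vim, another intermediate filament of neural progenitors that other cells also use, was the member that fell, with 133 to 171 CPM at 96 h and 240 to 350 CPM at 48 h (log2 fold change -0.91 ± 0.14, adjusted p = 9.08e-06).

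**Figure D2:**
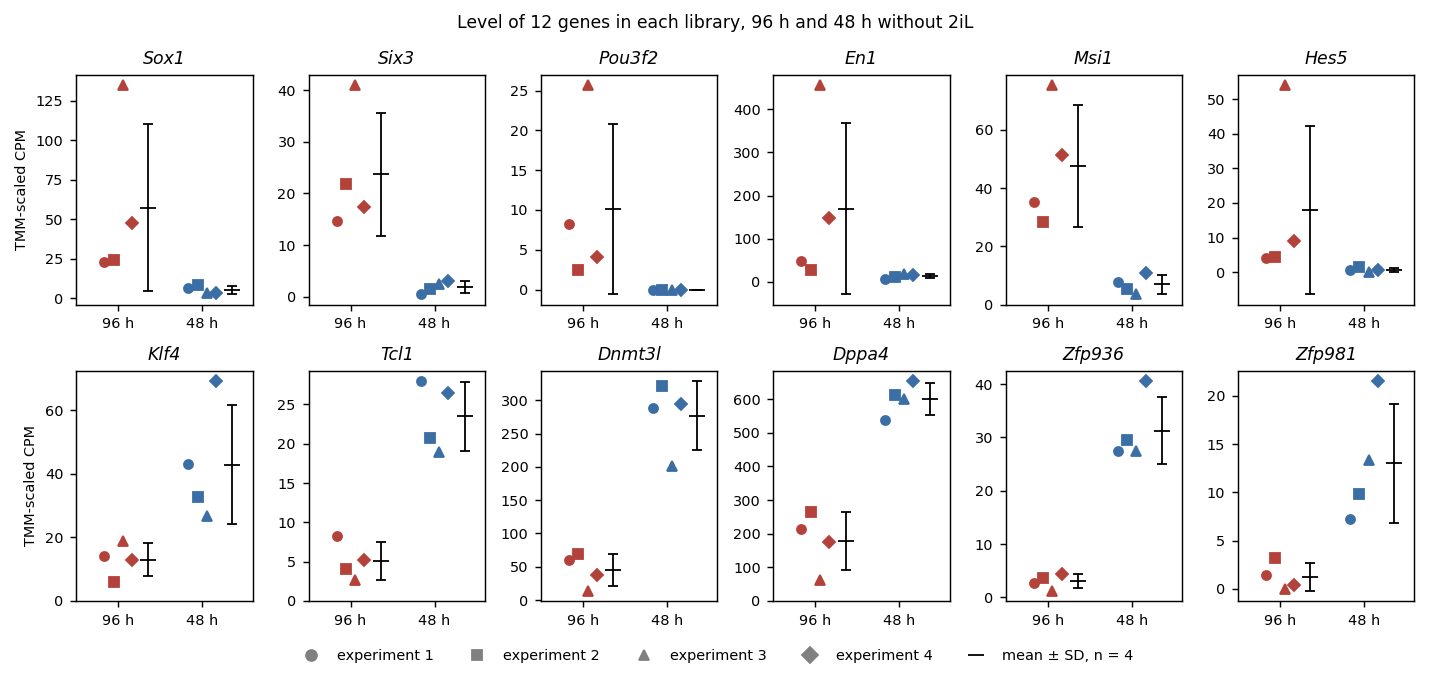
TMM-scaled CPM of 12 genes in each library, with the 4 libraries of 96 h left of the 4 of 48 h in each panel, a symbol per experiment, and a black mean ± SD (n = 4). In all 12 panels the groups do not overlap, and the 96 h library of experiment 3 is the highest for the 6 genes of the upper row and the lowest for Tcl1, Dnmt3l, Dppa4, Zfp936 and Zfp981.

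Regional factors of the neural tube are given from front to back. Of 29 forebrain and midbrain genes 18 had enough counts to be tested, and of these 12 rose, 1 fell and 5 were not called (median 3.24), or 10 and 1 without the 96 h library of experiment 3 (median 2.61). A gene that is close to 0 at 48 h could pass the filter on low counts through later groups alone, so the median covers only genes that are high somewhere in the series. En1, a homeobox factor of the midbrain-hindbrain boundary, had 47.7, 27.1, 456 and 148 CPM at 96 h in experiments 1 to 4, against 7.26, 10.9, 18.9 and 15.3 CPM at 48 h, and rose by 3.29 ± 0.36 (adjusted p = 2.54e-08). Otx1, a homeobox factor of forebrain and midbrain, had 3.67, 10.1, 130 and 6.89 CPM at 96 h, against 0, 0.494, 1.83 and 1.23 CPM at 48 h, and rose by 4.83 ± 0.69 (adjusted p = 2.8e-06), or 3.61 without experiment 3 at 96 h. Both genes were higher in all 4 experiments, and the 96 h value of experiment 3 was far above the other 3.

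Irx3 and Irx5, Iroquois factors of the neural plate behind the anterior forebrain, rose by 3.18 ± 0.44 (adjusted p = 1.82e-06) and 2.76 ± 0.58 (adjusted p = 0.000569). Fezf2, a zinc-finger factor of the forebrain, had 5.05, 3.23, 22.2 and 6.89 CPM at 96 h and no counts at 48 h, so it was at least 22.5-fold higher (adjusted p = 0.000439), or at least 12.2-fold without experiment 3 at 96 h. Its forebrain relative Fezf1 was not tested and had 14 counts at 96 h and 0 at 48 h, and the eye-field factor Six6 likewise had 24 and 0. Both stayed under the filter on low counts.

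Several genes of the midbrain-hindbrain boundary were far higher in experiment 3 than in the other 96 h libraries. Pax2 had 1.83, 2.83, 54.1 and 12.6 CPM at 96 h and 1 count in the 4 libraries of 48 h, a ratio of 127 (exact 95% interval 22.5 to 5060). Pax5 had 2.29, 2.43, 40.1 and 6.08 CPM at 96 h and 3 counts at 48 h, a ratio of 30.2 (interval 10.1 to 148). Wnt1, a ligand made by the midbrain and roof plate, had 0.459, 1.21, 24.4 and 4.46 CPM at 96 h and 1 count at 48 h, a ratio of 54.5 (interval 9.47 to 2180). All 3 were called with and without experiment 3 at 96 h (adjusted p = 0.0017, 0.00682 and 0.0257 without it), but the levels at 96 h differed between experiments by more than 10-fold. Without it the ratios were 42.6 for Pax2, 8.79 for Pax5 and 15.2 for Wnt1. Pax8, of the same family as Pax2 and Pax5, was the member that fell, with 0 to 1.31 CPM at 96 h and 1.22 to 11.7 CPM at 48 h (log2 fold change -3.45 ± 0.98, adjusted p = 0.00996, and -4.59 without experiment 3 at 96 h). Wnt8b and Dmbx1 gave 15.7 and 17.4 CPM in experiment 3 and at most 4.87 CPM in the other 96 h libraries. Wnt8b was not called, and the call of Dmbx1 was lost without that library.

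Of 24 hindbrain and spinal cord genes 12 were tested, 2 rose (16.7%) and 0 fell (1 and 0 without experiment 3 at 96 h), so the share that rose was close to that of all genes. Nkx6-1, a ventral neural tube factor, had 3.67, 10.1, 71.9 and 19.9 CPM at 96 h, against 1.04, 0.494, 1.83 and 4.91 CPM at 48 h (log2 fold change 3.45 ± 0.60, adjusted p = 5.55e-05, and 2.54 without that of experiment 3). Nkx1-2, which marks the tail-end progenitors of the spinal cord, was called with all libraries (3.09 ± 0.94, adjusted p = 0.0148) and not without that one. Among Hox genes, Hoxb1 and Hoxb4 had at most 2.75 CPM in any library at 96 h and 1.23 CPM at 48 h, and Hoxd4 had no counts in the 8 libraries. Outside the Hox genes, Shh and Nkx2-2 also had no counts in them. Hoxb1 and Hoxb4 were tested and not called here, while in the same fit Hoxb1 was called higher at 120 h than at 24 h (5.79, adjusted p = 1.77e-05).

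**Figure D3:**
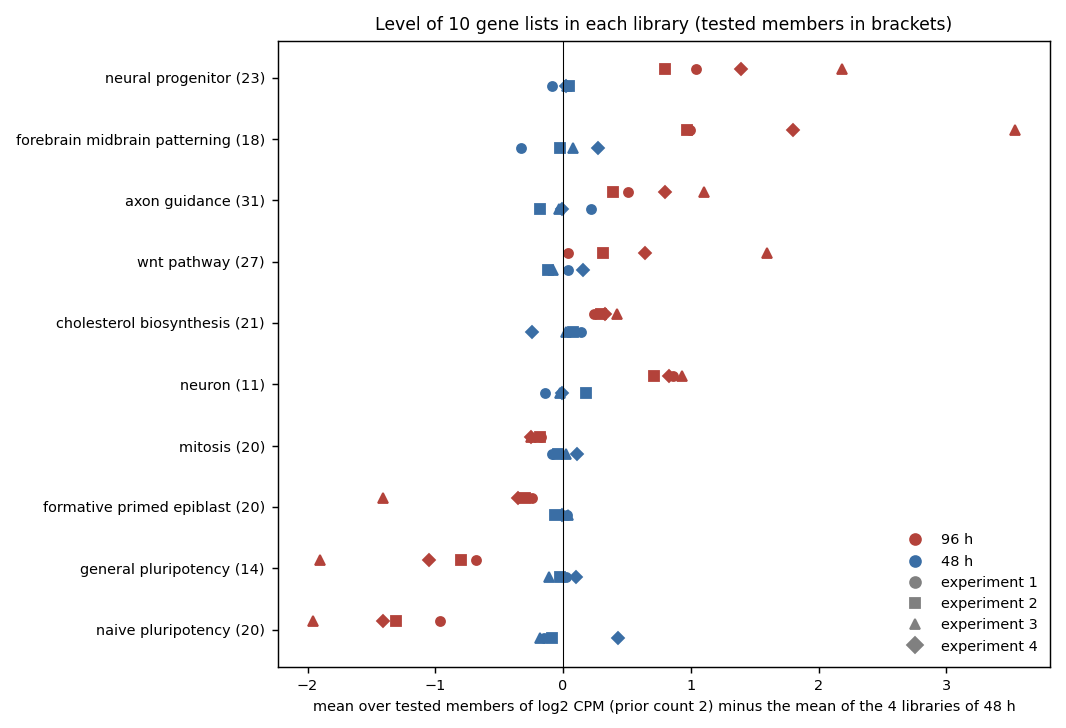
For 10 gene lists, the mean over tested members of log2 CPM relative to the 48 h mean is shown for each library, with 96 h libraries in red above 48 h libraries in blue and a symbol per experiment. The neural progenitor list is 0.80 to 2.18 higher in the 96 h libraries, the naive list 0.96 to 1.96 lower, and the 96 h library of experiment 3 is the most extreme for each of the 4 lists of neural progenitor, forebrain and midbrain, general pluripotency and naive pluripotency genes.

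Of 20 genes of neurons 11 were tested, 4 rose and 1 fell, with and without experiment 3 at 96 h. Map2, which encodes a microtubule protein of dendrites, had 28, 22.6, 39.7 and 22.7 CPM at 96 h, against 0.518, 1.97, 4.27 and 6.13 CPM at 48 h, and rose by 3.16 ± 0.35 (adjusted p = 4.27e-08). Nefm, a neurofilament gene, averaged 25.5 ± 9.41 CPM at 96 h and 3.67 ± 1.01 CPM at 48 h (SD, n = 4 each), and rose by 2.80 ± 0.40 (adjusted p = 3.04e-06). For both the times did not overlap, and here experiment 3 lay within 1.5-fold of another 96 h library. Elavl3, an RNA-binding protein of early neurons, rose by 1.62 ± 0.39 (adjusted p = 0.002), and the splicing factor gene Rbfox3 by 2.00 ± 0.54 (adjusted p = 0.00625). Neurod1, a proneural factor, fell to 8.72 to 21.4 CPM at 96 h, against 22.8 to 54.3 CPM at 48 h (-1.25 ± 0.33, adjusted p = 0.00521). Tubb3, which encodes the neuronal beta-tubulin, was not called, at 0.61 ± 0.23 (adjusted p = 0.0537). A fit of the 8 libraries alone called it (0.63, adjusted p = 0.00509). Nefl, Elavl4, Gap43, Stmn2 and Ina, the remaining tested members, were called in neither fit. Their log2 fold changes were 0.52, 0.5, 0.03, -0.14 and -0.28 (adjusted p = 0.111, 0.555, 0.956, 0.701 and 0.278). For Ina every 96 h library lay below every 48 h library, so the rises above do not hold for the list as a whole. The proneural genes Neurog1 and Neurog2 had 0 and 4 counts in the 96 h libraries and 1 and 0 counts in the 48 h libraries and were not tested.

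In the Notch pathway, through which neighbouring cells hold each other in a progenitor state, 3 of 14 tested members rose and 1 fell (2 and 1 without experiment 3 at 96 h). That is 28.6% of members called, close to the 24.8% of all genes. Hes5, a repressor induced by Notch in neural progenitors, had 4.13, 4.45, 54.1 and 8.92 CPM at 96 h, against 0.518, 1.48, 0 and 0.613 CPM at 48 h (log2 fold change 4.31 ± 0.76, adjusted p = 6.1e-05). Hes1, its relative, had 16.5, 21, 44.5 and 30 CPM at 96 h, against 9.85, 5.92, 4.27 and 11 CPM at 48 h (1.83 ± 0.32, adjusted p = 5.57e-05). The third that rose was the feedback regulator Nrarp (2.16 ± 0.76, adjusted p = 0.0352, or 0.107 without experiment 3). Hes6, which opposes Hes1 and favours differentiation, fell to 144, 169, 58.9 and 92.1 CPM at 96 h, against 201, 233, 232 and 189 CPM at 48 h (-0.91 ± 0.18, adjusted p = 0.00036). The target gene Hey1, with 1.38, 2.83, 0.872 and 5.27 CPM at 96 h and a mean of 1.12 CPM at 48 h, was not called (1.20 ± 0.81, adjusted p = 0.301). The ligand genes Dll1, Dll3, Jag1 and Jag2 and the receptor genes Notch1, Notch2 and Notch3 were not called (adjusted p = 0.0622 to 0.864). Maml3, a coactivator of the Notch complex that is on none of the lists, is among the largest rises below.

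Genes of the formative and primed epiblast were divided. Of 20 members 1 rose and 9 fell (2 and 6 without experiment 3 at 96 h), with a median log2 fold change of -0.52. Dnmt3l, the cofactor of the de novo methyltransferases, had 60.1, 69.1, 14.4 and 37.7 CPM at 96 h, against 288, 322, 202 and 294 CPM at 48 h, and fell by 2.73 ± 0.25 (adjusted p = 1.09e-09). Dnmt3a had 228, 237, 110 and 236 CPM at 96 h, against 406, 385, 553 and 492 CPM at 48 h, and fell by 1.19 ± 0.19 (adjusted p = 1.58e-05). Dnmt3b had 1250, 1310, 478 and 1320 CPM at 96 h, against 1040, 865, 1180 and 1030 CPM at 48 h, and was not called (0.02 ± 0.28, adjusted p = 0.967). Of these methyltransferase genes, Dnmt3l and Dnmt3a separated the times in every library, while Dnmt3b was lower than at 48 h only in experiment 3. Tcf15, a basic helix-loop-helix factor of the formative transition, fell by 2.02 ± 0.30 (adjusted p = 4.6e-06), and Utf1, a chromatin protein of pluripotent cells, by 1.25 ± 0.29 (adjusted p = 0.0017).

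The factors most used to mark the formative state did not pass the test in the fit of all 28 libraries. Otx2 averaged 282 ± 29.3 CPM at 96 h and 345 ± 47.5 CPM at 48 h (SD, n = 4 each, log2 fold change -0.28 ± 0.29, adjusted p = 0.523). It was lower at 96 h in 4 of 4 experiments, and a fit of the 8 libraries alone called it (-0.28, adjusted p = 0.0491). Pou3f1 had 410, 502, 260 and 531 CPM at 96 h, against 401, 383, 537 and 419 CPM at 48 h (adjusted p = 0.99). Fgf5, a growth factor of the epiblast, had 59.2, 49.7, 10.5 and 53.1 CPM at 96 h, against 27, 10.9, 42.7 and 17.8 CPM at 48 h (0.66 ± 0.47, adjusted p = 0.33). For Fgf5 the sign differed between experiments, with the 96 h library lower in experiment 3 and higher in the other 3. Foxd3, Grhl2 and Etv4 fell in the fit of all libraries (-1.32 ± 0.43, -1.21 ± 0.36 and -0.93 ± 0.28) and were not called without experiment 3 at 96 h.

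Of 14 general pluripotency genes, 10 fell and 1 rose (9 and 0 without experiment 3 at 96 h), with a median log2 fold change of -1.25. Dppa4, a nuclear protein of pluripotent cells, had 213, 265, 62.4 and 176 CPM at 96 h, against 539, 611, 601 and 654 CPM at 48 h (-1.89 ± 0.29, adjusted p = 8.29e-06). Gdf3, a TGF-beta family ligand, had 59.6, 49.3, 10.5 and 17.4 CPM at 96 h, against 132, 137, 112 and 92.6 CPM at 48 h (-1.90 ± 0.29, adjusted p = 7.4e-06). Both were lower in every 96 h library than in any 48 h library. Trim28, a corepressor that silences transposons through KRAB zinc-finger proteins, fell evenly, with 711 to 829 CPM at 96 h and 1200 to 1320 CPM at 48 h (-0.67 ± 0.09, adjusted p = 9.14e-07). L1td1, an RNA-binding protein gene derived from a transposon, fell by 1.26 ± 0.33 (adjusted p = 0.00467). The member that rose was Lin28a, an inhibitor of let-7 microRNAs (0.44 ± 0.15, adjusted p = 0.0304, or 0.109 without experiment 3). Pou5f1 had 22, 24.7, 6.98 and 21.5 CPM at 96 h, against 36.8, 43, 19.5 and 27 CPM at 48 h, without a call (adjusted p = 0.0544). It was called as lower in a fit of the 8 libraries alone (adjusted p = 0.0214). The authors' counting leaves out its reads that also match its pseudogenes.

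Of 20 naive pluripotency genes 14 fell and 0 rose, with and without experiment 3 at 96 h, with medians of -1.64 and -1.46. Tcl1, a coactivator of the kinase AKT, had 8.26, 4.04, 2.62 and 5.27 CPM at 96 h, against 28, 20.7, 18.9 and 26.4 CPM at 48 h (-2.23 ± 0.28, adjusted p = 2.92e-07). Klf4, a Krüppel-like factor, had 14.2, 6.06, 18.8 and 13 CPM at 96 h, against 43, 32.6, 26.9 and 69.3 CPM at 48 h (-1.69 ± 0.29, adjusted p = 5.08e-05). Tdh, which encodes threonine dehydrogenase, had 79.4, 74.4, 14 and 67.3 CPM at 96 h, against 218, 245, 349 and 388 CPM at 48 h (-2.38 ± 0.35, adjusted p = 3.98e-06). The times did not overlap for any of these genes, and Klf4 differs in that experiment 3 held its highest 96 h value. The nuclear receptor genes Nr0b1 and Nr5a2 fell by 2.98 ± 0.47 and 2.65 ± 0.40 (adjusted p = 1.23e-05 and 5.85e-06). Nr0b1 averaged 18.8 CPM in 2iL, 66.7 at 24 h, 19.4 at 48 h and 2.2 at 96 h, so it was already falling before 48 h (48 h minus 24 h -1.87, adjusted p = 0.000365). Zfp42 fell by 1.99 ± 0.30 (adjusted p = 7.73e-06), and Lifr, the receptor chain for LIF, by 1.92 ± 0.23 (adjusted p = 1.95e-07).

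Tfcp2l1 and Nanog, central factors of the naive network, were not called. Tfcp2l1 averaged 550 CPM in 2iL, 66.6 at 24 h, 18.3 at 48 h, 12.8 at 96 h and 8.87 at 120 h, so most of its fall came before 48 h (96 h minus 48 h -0.52 ± 0.37, adjusted p = 0.324). Nanog averaged 148 CPM in 2iL, 37.8 at 24 h, 13.1 at 48 h, 10.3 at 96 h and 14.8 at 120 h (96 h minus 48 h -0.33 ± 0.40, adjusted p = 0.591).

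**Figure D4:**
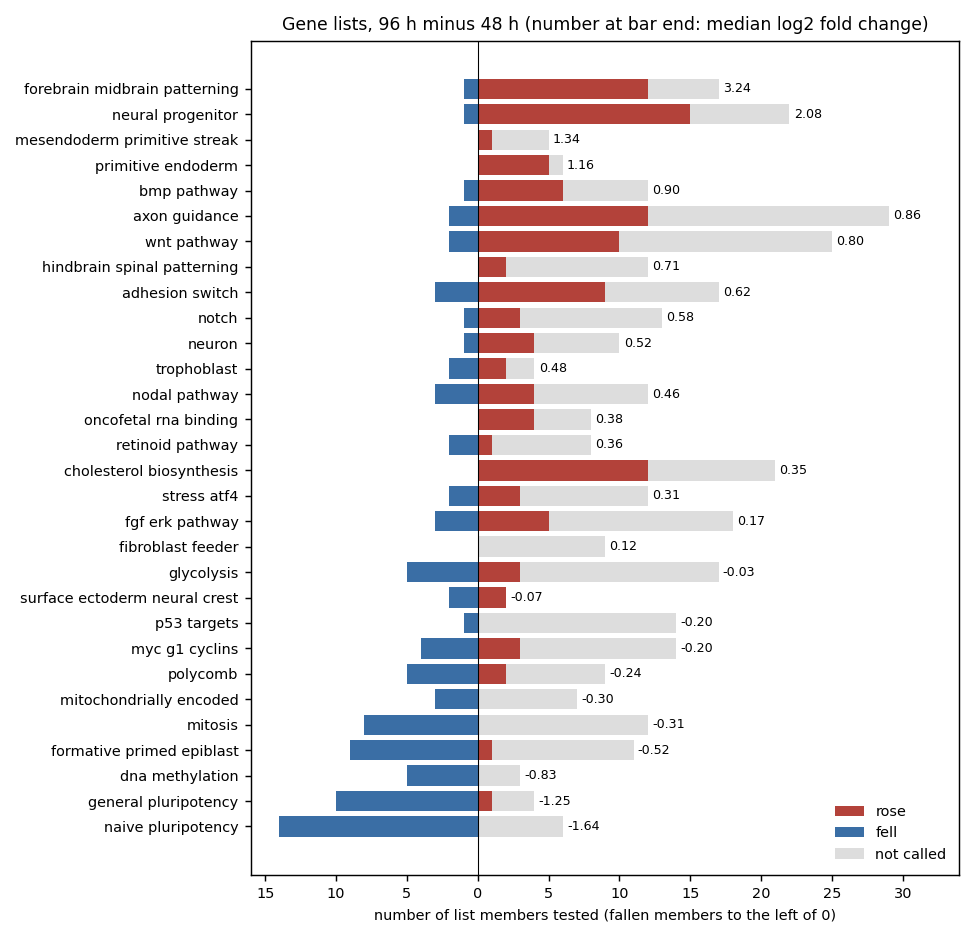
For each of 30 gene lists the bars count members that rose, members that were tested and not called, and members that fell (to the left of 0), and the number at the bar end is the median log2 fold change, 96 h minus 48 h. Forebrain and midbrain and neural progenitor lists stand at the top with medians of 3.24 and 2.08, and general and naive pluripotency lists at the bottom with -1.25 and -1.64.

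Signalling genes are given by pathway. In the NODAL pathway, a TGF-beta signal that holds the epiblast state, 4 of 15 tested members rose and 3 fell (2 and 3 without experiment 3 at 96 h). The ligand genes Nodal and Gdf3 and the coreceptor gene Tdgf1 fell, Nodal to 7.34, 3.23, 3.05 and 2.84 CPM at 96 h, against 17.1, 13.8, 7.94 and 19.6 CPM at 48 h (-1.83 ± 0.48, adjusted p = 0.00484). Lefty1 and Lefty2 of this list were not called (1.02 ± 0.83 and 0.66 ± 0.65, adjusted p = 0.406 and 0.5). Each was higher at 96 h in 4 of 4 experiments. The receptor gene Acvr2b rose by 0.86 ± 0.17 (adjusted p = 0.000239) and Furin, whose product cleaves the ligand precursor, by 0.97 ± 0.21 (adjusted p = 0.0009). The other members that rose were the signal transducer genes Smad3 and Smad4, by 0.75 and 0.46 (adjusted p = 0.0381 and 0.0196), and neither was called without experiment 3 (adjusted p = 0.112 and 0.0574).

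In the BMP pathway 6 of 13 tested members rose and 1 fell (2 and 1 without experiment 3 at 96 h). Bmp4, the ligand, fell to 2.83 to 5.27 CPM at 96 h, against 7.41 to 14.7 CPM at 48 h (-1.35 ± 0.35, adjusted p = 0.00418). Id2, a target of BMP signalling that blocks basic helix-loop-helix factors, had 51.8, 50.9, 134 and 55.2 CPM at 96 h, against 25.4, 30.6, 21.4 and 23.9 CPM at 48 h (1.43 ± 0.30, adjusted p = 0.000547). The receptor gene Bmpr1a rose by 0.69 ± 0.16 (adjusted p = 0.00149). The rises of Id1 and Id3, by 1.18 ± 0.37 and 0.92 ± 0.32, were not called without experiment 3.

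Among FGF and ERK genes 5 of 21 tested rose and 3 fell (4 and 2 without experiment 3 at 96 h). The epiblast ligand gene Fgf4 fell to 38.1, 33.6, 5.23 and 20.7 CPM at 96 h, against 66.9, 63.7, 54.3 and 66.2 CPM at 48 h (-1.43 ± 0.27, adjusted p = 0.000178). Etv5, a transcriptional target of FGF signalling, fell by 1.14 ± 0.25 (adjusted p = 0.000927). In the other direction, Egr1 and Phlda1 of this list rose by 1.99 ± 0.67 and 1.29 ± 0.32 (adjusted p = 0.0272 and 0.00315). Both were also called without experiment 3 at 96 h, while Dusp4, Dusp6, Spry2 and Spry4 were not called with all libraries. The receptor gene Fgfr1 rose by 0.89 ± 0.18 (adjusted p = 0.000351). Fgf15, a ligand of the neural plate, averaged 10.1 ± 7.26 CPM at 96 h and 2.06 ± 1.07 CPM at 48 h (2.12 ± 0.59, adjusted p = 0.00828, or 0.0628 without experiment 3).

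Of 27 WNT pathway genes tested 10 rose and 2 fell (7 and 2 without experiment 3 at 96 h). Among receptors, Fzd2 had 97.3, 105, 177 and 170 CPM at 96 h, against 24.9, 31.6, 60.4 and 30.7 CPM at 48 h (1.89 ± 0.20, adjusted p = 1.83e-08), and Fzd3 rose by 2.85 ± 0.38 (adjusted p = 9.95e-07). Among secreted antagonists, Sfrp1 had 108, 78.4, 203 and 120 CPM at 96 h, against 25.4, 28.6, 28.7 and 20.9 CPM at 48 h (2.28 ± 0.22, adjusted p = 3.85e-09). Frzb, an antagonist of the same family outside the list, had 10.1, 9.7, 64.5 and 24.7 CPM at 96 h and 1 count at 48 h, a ratio of 196 (exact 95% interval 34.8 to 7760), or 109 without experiment 3 at 96 h. These receptors and antagonists were higher in every experiment. The feedback targets were less even. Nkd1 rose by 3.39 ± 0.46 (adjusted p = 1.18e-06), while Axin2 had 5.5, 7.68, 32.3 and 12.2 CPM at 96 h, against 5.7, 4.44, 3.05 and 3.68 CPM at 48 h (1.61 ± 0.39, adjusted p = 0.00216), with no rise in experiment 1. Sp5 had 0.459, 0.809, 33.6 and 6.49 CPM at 96 h, against 1.56, 0.987, 3.05 and 1.84 CPM at 48 h, higher in experiments 3 and 4 and lower in experiments 1 and 2. Its call (2.35 ± 0.79, adjusted p = 0.0259) was lost without experiment 3 (adjusted p = 0.666). Lef1, a nuclear partner of beta-catenin, fell by 0.61 ± 0.18 (adjusted p = 0.0116).

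In the retinoid pathway, which patterns the hindbrain, 1 of 10 tested members rose (10%) and 2 fell (20%), against 13.1% and 11.7% of all genes. The counts were the same without experiment 3 at 96 h, and the median log2 fold change was 0.36 with it and 0.21 without it. The receptor genes Rara and Rarg fell by 0.87 ± 0.21 and 1.06 ± 0.18 (adjusted p = 0.0021 and 3.63e-05).

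Guidance receptors and ligands, which steer axons and also sort cells in the neural plate, rose in 12 of 31 tested cases and fell in 2 (8 and 2 without experiment 3 at 96 h). Efna5, an ephrin ligand, had 21.6, 23, 61.9 and 29.6 CPM at 96 h, against 3.63, 2.47, 3.66 and 2.45 CPM at 48 h (3.37 ± 0.36, adjusted p = 1.74e-08). The receptor gene Ephb1 had 21.1, 26.7, 37.1 and 26 CPM at 96 h, against 1.56, 1.48, 8.55 and 2.45 CPM at 48 h (3.02 ± 0.45, adjusted p = 5.1e-06). Groups did not overlap for either. Sema5b, a semaphorin gene, fell by 2.46 ± 0.53 (adjusted p = 0.000644). Plxna4, a semaphorin receptor gene, had 1 count at 96 h and 2.07 to 6.42 CPM at 48 h, so it was lower by a ratio of 44.3 (exact 95% interval 7.43 to 1800).

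Adhesion genes rose in 9 of 20 tested cases and fell in 3 (9 and 2 without experiment 3 at 96 h). Zeb2, a repressor of E-cadherin that is also used in neural induction, had 24.3, 24.7, 78.1 and 56.4 CPM at 96 h, against 6.22, 6.42, 12.8 and 7.97 CPM at 48 h (2.38 ± 0.24, adjusted p = 6.7e-09). Its exons overlap those of the antisense gene Zeb2os. E-cadherin itself, Cdh1, had 904, 1130, 366 and 776 CPM at 96 h, against 985, 1180, 1080 and 911 CPM at 48 h, without a call (-0.50 ± 0.37, adjusted p = 0.353). Cldn7, a tight-junction gene, had 60.6, 58.2, 12.2 and 34.9 CPM at 96 h, against 6.22, 7.41, 6.1 and 1.23 CPM at 48 h (2.92 ± 0.45, adjusted p = 7.88e-06). Cldn6 had 144, 91.4, 28.8 and 101 CPM at 96 h, against 34.2, 35.1, 38.5 and 22.1 CPM at 48 h (1.37 ± 0.40, adjusted p = 0.0108). Both were at their lowest 96 h level in experiment 3, where Cldn6 lay below its 48 h library. The keratin genes Krt8 and Krt18 rose by 2.94 ± 0.59 and 1.84 ± 0.37 (adjusted p = 0.000287 and 0.000285), and these also serve as trophoblast markers.

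Markers of other cell types are given by list. For primitive endoderm, Gata4, Gata6, Sox17 and Sox7 had 1 to 5 counts over the 96 h libraries and 0 to 2 over the 48 h libraries, while 5 of 6 tested members rose (2 without experiment 3 at 96 h). These were basement membrane genes such as Col4a1 (1.12 ± 0.26, adjusted p = 0.00158) and the endocytic adaptor gene Dab2, which other cells also use. The list summed to 114 to 170 CPM at 96 h and 58.3 to 84.5 CPM at 48 h. For mesendoderm, Eomes rose by 2.55 ± 0.72 (adjusted p = 0.00815) to 5.67 to 8.72 CPM at 96 h, against 0 to 2.44 CPM at 48 h, while T was not called, and the list summed to 10.5 to 20.7 CPM at 96 h and 4.27 to 10.9 CPM at 48 h. For trophoblast, 2 of 6 tested members rose and 2 fell, Cdx2 stayed at or below 1.22 CPM, Elf5 had no counts, and the list summed to 30.1 to 83.5 CPM at 96 h and 39.9 to 60.1 CPM at 48 h. For surface ectoderm and neural crest, 2 of 4 tested members rose and 2 fell, with a median log2 fold change of -0.07. Without experiment 3 at 96 h, 1 rose and 2 fell. Sox9, listed for neural crest and also expressed in neural progenitors, rose by 3.30 ± 0.35 (adjusted p = 1.54e-08). Sox10 had 7 counts over the 96 h libraries and 2 over the 48 h libraries. The list summed to 44 to 116 CPM at 96 h, highest in experiment 3, and to 19 to 36.5 CPM at 48 h. Of 9 fibroblast genes 0 rose and 0 fell, and their summed level was 236 to 424 CPM at 96 h and 194 to 435 CPM at 48 h. The part of these cell types in the results was not tested.

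Of 8 tested DNA methylation genes, 5 fell and 0 rose (4 and 0 without experiment 3 at 96 h). Beside Dnmt3a and Dnmt3l these included Tet1, which oxidises methylcytosine, with 263, 205, 82 and 139 CPM at 96 h, against 495, 482, 414 and 511 CPM at 48 h (-1.52 ± 0.22, adjusted p = 2.71e-06). Uhrf1, which brings Dnmt1 to newly made DNA, fell by 0.55 ± 0.15 (adjusted p = 0.00786). Of 14 tested Polycomb genes 2 rose and 5 fell (1 and 4 without experiment 3). Mtf2, which recruits the complex PRC2, had 168, 196, 164 and 198 CPM at 96 h, against 329, 334, 336 and 350 CPM at 48 h (-0.90 ± 0.10, adjusted p = 1.83e-08), and the core subunit gene Suz12 fell by 0.62 ± 0.12 (adjusted p = 0.000237). For Mtf2 the spread within each time was small beside the gap between them. Ring1, of the complex PRC1, rose by 1.56 ± 0.42 (adjusted p = 0.00604).

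Among Myc and cyclin genes 3 of 18 tested rose and 4 fell (1 and 4 without experiment 3 at 96 h), which is 16.7% and 22.2%, against 13.1% and 11.7% of all genes. The D-type cyclin genes Ccnd2 and Ccnd1 moved in opposite directions. Ccnd2, a cyclin of the G1 phase, had 176, 140, 797 and 191 CPM at 96 h, against 78.3, 51.3, 75.7 and 85.9 CPM at 48 h (1.87 ± 0.26, adjusted p = 1.53e-06), while Ccnd1 had at most 263 CPM at 96 h and at most 323 CPM at 48 h (-0.45 ± 0.13, adjusted p = 0.0117). Mycn, the Myc family member of neural progenitors, fell by 0.83 ± 0.19 (adjusted p = 0.00158). Of 20 mitosis genes, 8 fell and 0 rose (4 and 0 without experiment 3 at 96 h, 5 and 0 with library totals), with a median of -0.31. Top2a, a topoisomerase of dividing cells, averaged 1250 ± 53.8 CPM at 96 h and 1660 ± 57.8 CPM at 48 h (SD, n = 4 each, -0.42 ± 0.08, adjusted p = 0.000141). Among oncofetal RNA-binding proteins 4 of 8 rose and 0 fell (2 and 0 without experiment 3), among them Lin28b, a relative of Lin28a, by 1.46 ± 0.22 (adjusted p = 4.73e-06).

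Cholesterol synthesis genes rose in 12 of 21 tested cases and fell in 0 (6 and 0 without experiment 3 at 96 h), by small amounts (median 0.35 both ways). Hmgcs1, whose product makes the precursor HMG-CoA, had 688, 737, 892 and 756 CPM at 96 h, against 372, 399, 540 and 454 CPM at 48 h (0.80 ± 0.12, adjusted p = 4.17e-06), with no overlap. Of 22 glycolysis genes 3 rose (13.6%, close to all genes) and 5 fell (22.7%, against 11.7% of all genes), or 3 and 4 without experiment 3. The glucose transporter gene Slc2a3 had 94, 80, 198 and 117 CPM at 96 h, against 25.4, 22.7, 31.7 and 38.6 CPM at 48 h (2.05 ± 0.26, adjusted p = 3.91e-07). Ldhb, a lactate dehydrogenase gene, fell by 1.57 ± 0.22 (adjusted p = 1.43e-06), and Pdk1, a brake on pyruvate dehydrogenase, by 1.46 ± 0.25 (adjusted p = 4.16e-05). Among signs of RNA and cell quality, 3 of 10 mitochondrially encoded genes fell and 0 rose, 1 of 15 p53 target genes fell and 0 rose, and 3 of 14 stress genes rose and 2 fell (21.4% and 14.3%).

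The largest rises, taken from genes with at least 10 CPM in the higher group and the same sign in all 4 experiments, were mostly near 0 at 48 h. Stmn4, which encodes a neuronal regulator of microtubules, had 14.2, 7.68, 19.6 and 2.84 CPM at 96 h and no counts at 48 h, at least 26.7-fold higher (adjusted p = 7.33e-05). Iglon5, a neuronal adhesion protein gene, had 19.3, 16.6, 20.9 and 25.1 CPM at 96 h and 2 counts at 48 h, a ratio of 74.1 (exact 95% interval 20.2 to 616). Maml3 had 17, 16.6, 50.6 and 23.5 CPM at 96 h and 3 counts at 48 h, a ratio of 64.5 (interval 21.8 to 315). Unlike the patterning genes, Iglon5 was even over the 4 experiments. The others were Pou3f2, Frzb, Pax2, Pax5 and Otx1, described above, the cadherin gene Cdh6, the tau-tubulin kinase gene Ttbk1 (ratio 26.3, interval 8.77 to 130), Lrrc8c, a subunit of volume-regulated anion channels (4.50 ± 0.53, adjusted p = 1.13e-07), and Fndc3c1 (4.38 ± 0.55, adjusted p = 3.5e-07). Cdh6 had 2.29, 2.43, 40.6 and 6.49 CPM at 96 h and 1 count at 48 h, a ratio of 92.1 (exact 95% interval 16.2 to 3670), or 27.4 (interval 4.52 to 1120) without the high library of experiment 3.

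Among the largest falls, Irak3, a brake on Toll-like receptor signalling, had 4.59, 2.43, 0.436 and 2.03 CPM at 96 h, against 26.4, 27.2, 29.9 and 32.5 CPM at 48 h (-3.63 ± 0.39, adjusted p = 1.54e-08). Ryr3, a calcium release channel gene, had 4.59, 4.85, 0.436 and 2.03 CPM at 96 h, against 38.9, 31.6, 33 and 40.5 CPM at 48 h (-3.57 ± 0.52, adjusted p = 4.08e-06). Fetub, which encodes a secreted protease inhibitor, had 3 counts at 96 h and 10.4 to 15.3 CPM at 48 h, lower by a ratio of 40.0 (exact 95% interval 13.3 to 197). Timm8a2 (-5.02 ± 0.57), Glod5 (-4.07 ± 0.54), the protease gene Capn3 (-3.57 ± 0.79), Mmrn2 (-3.52 ± 0.44), the sulfotransferase gene Sult6b1 (-3.45 ± 0.45) and the RNA helicase gene D1Pas1 (-3.44 ± 0.64) also fell in every experiment. So did 3 zinc-finger genes, Zfp977, Zfp981 and Zfp936. Zfp936 had 2.75, 3.64, 1.31 and 4.46 CPM at 96 h, against 27.5, 29.6, 27.5 and 40.5 CPM at 48 h (-3.32 ± 0.40, adjusted p = 1.61e-07).

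Of 273 tested zinc-finger genes with a Zfp number, 31 fell (11.4%, against 11.7% of all genes) and 35 rose. On chromosome 4, 9 of 18 fell, against 89 of all 721 tested genes of that chromosome (12.3%). This chromosome was chosen after its values were seen, as were the genes named next. Between 145510759 and 147809788 on chromosome 4 lie 10 tested Zfp genes, of which 7 fell (6 without experiment 3 at 96 h, where Zfp534 was not called) and 0 rose, with log2 fold changes of -0.71 to -3.34. Zfp985 had 10.1, 12.9, 3.92 and 8.52 CPM at 96 h, against 52.4, 38.5, 45.2 and 55.8 CPM at 48 h (-2.43 ± 0.27, adjusted p = 3.95e-08). Zfp979 had 31.2, 30.7, 12.2 and 42.2 CPM at 96 h, against 73.6, 101, 90.3 and 83.4 CPM at 48 h (-1.62 ± 0.23, adjusted p = 2.54e-06). Zfp981 had 1.38, 3.23, 0 and 0.406 CPM at 96 h, against 7.26, 9.87, 13.4 and 21.5 CPM at 48 h (-3.34 ± 0.58, adjusted p = 4.81e-05). For these genes every 96 h library was below every 48 h library. Zfp980, Zfp978, Zfp990 and Zfp534 also fell, and Zfp984, Zfp988 and Zfp992 were not called (-0.71 ± 0.50, -1.31 ± 0.65 and -1.18 ± 0.47).

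The start regions of several of these genes are alike. The RefSeq promoters of 4 that fell together (GRCm38.p6, 250 bases before to 50 after the start) are printed below with the longest run that all 4 share in capitals. They lie at chr4:145670447-145670746 (Zfp980, plus strand), chr4:146514670-146514969 (Zfp981, plus strand), chr4:147553027-147553326 (Zfp985, plus strand) and chr4:147642459-147642758 (Zfp979, minus strand).
Zfp980: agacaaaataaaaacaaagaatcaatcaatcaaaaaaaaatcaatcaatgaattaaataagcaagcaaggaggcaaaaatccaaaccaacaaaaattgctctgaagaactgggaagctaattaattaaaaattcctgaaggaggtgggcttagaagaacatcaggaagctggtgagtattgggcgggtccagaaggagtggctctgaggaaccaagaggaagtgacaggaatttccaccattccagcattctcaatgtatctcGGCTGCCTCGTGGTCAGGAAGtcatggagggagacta
Zfp981: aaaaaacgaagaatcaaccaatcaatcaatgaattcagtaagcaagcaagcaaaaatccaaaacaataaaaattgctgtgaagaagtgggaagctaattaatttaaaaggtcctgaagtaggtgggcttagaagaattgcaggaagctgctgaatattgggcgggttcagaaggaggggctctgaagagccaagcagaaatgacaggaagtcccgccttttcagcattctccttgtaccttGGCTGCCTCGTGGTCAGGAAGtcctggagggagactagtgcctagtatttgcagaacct
Zfp985: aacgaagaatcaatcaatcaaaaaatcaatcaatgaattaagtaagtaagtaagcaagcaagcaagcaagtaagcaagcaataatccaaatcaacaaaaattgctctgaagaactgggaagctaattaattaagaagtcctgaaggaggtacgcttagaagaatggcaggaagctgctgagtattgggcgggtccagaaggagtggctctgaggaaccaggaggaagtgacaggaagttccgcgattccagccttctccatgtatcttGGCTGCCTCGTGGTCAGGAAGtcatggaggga
Zfp979: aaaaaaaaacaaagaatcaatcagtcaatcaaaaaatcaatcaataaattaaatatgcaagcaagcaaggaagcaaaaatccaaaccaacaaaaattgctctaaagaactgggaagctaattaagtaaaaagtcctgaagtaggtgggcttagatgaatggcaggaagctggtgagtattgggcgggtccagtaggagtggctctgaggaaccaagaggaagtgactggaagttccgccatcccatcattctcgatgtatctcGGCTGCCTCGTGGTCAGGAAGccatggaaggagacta
The shared run of 21 bases, searched on both strands, occurs in 6 of 27025 promoters (0.0222%). It was defined as the longest run in 4 fallen genes, so that these fell is given by that choice, and it also lies in the promoters of Rex2 and Zfp600. The longest run shared by these 4 and Zfp534, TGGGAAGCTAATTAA on either strand, occurs in 11 promoters (0.0407%). Of the 7 such genes that were tested, these 5 fell, which is again given by the choice of the run, and Zfp984 and Zfp988 were not called. The fallen genes Zfp978 and Zfp990 are not among the genes of these 11 promoters. Over 10 pairs among 5 fallen genes of this stretch (these 4 and Zfp534) the promoters were 81.3% to 91.4% identical. On chromosome 7, Zfp936 and Zfp977 have promoters that are 92.9% identical and share a run of 70 bases found in no other promoter of the table. Reads that match more than 1 place were not counted. Whether the transcripts of these genes share reads was not tested, so their levels are uncertain to that extent.

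The 6 called genes whose change varied most between experiments were Ajap1, Zfp503, Ntn1, Hes5, Pax2 and Nr2f1. All 6 were highest at 96 h in experiment 3. Nr2f1, a nuclear receptor of the developing forebrain, had 3.67, 2.83, 51 and 7.71 CPM at 96 h, against 2.07, 0.494, 0.61 and 3.68 CPM at 48 h (2.79 ± 0.68, adjusted p = 0.00255). Ajap1, an adherens junction protein gene, had 5.96, 0.404, 55.8 and 8.52 CPM at 96 h and 3 counts at 48 h, a ratio of 41.7 (exact 95% interval 14 to 204), or 11.8 without experiment 3 at 96 h. The calls of Nr2f1, Zfp503 and the guidance ligand gene Ntn1 were lost without that library (adjusted p = 0.0795, 0.251 and 0.11), and those of Ajap1, Hes5 and Pax2 were not.

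By the rule for naming genes, 98 genes were called in opposite directions from 24 h to 48 h and from 48 h to 96 h, steps that share the 48 h libraries. Those with the largest changes in both steps are described. Gfra3, a coreceptor for neurotrophic ligands, averaged 0.158 CPM at 24 h, 6.77 at 48 h, 0.847 at 96 h and 0.574 at 120 h. Pdzk1, a scaffold protein gene, averaged 1.38 CPM at 24 h, 15.3 at 48 h, 1.93 at 96 h and 1.61 at 120 h. Kcnab3, a potassium channel subunit gene, averaged 3.90 CPM at 24 h, 0.412 at 48 h, 4.15 at 96 h and 3.80 at 120 h. So the first of these peaked at 48 h, as did the second, and Kcnab3 was lowest there. In the comparison of 96 h with 48 h Gfra3 fell by 3.10 ± 0.74 (adjusted p = 0.00212) and Pdzk1 by 2.83 ± 0.74 (adjusted p = 0.00482), while Kcnab3 had 39 counts at 96 h and 3 at 48 h, a ratio of 9.98 (exact 95% interval 3.17 to 50.5). Iglon5, described above, averaged 2.03 CPM at 24 h, 0.253 at 48 h, 20.5 at 96 h and 27.3 at 120 h.

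Mean levels at the neighbouring times place these changes. Sox1 averaged 11.9 CPM at 24 h, 5.31 at 48 h, 57.2 at 96 h and 153 at 120 h, and Ptn averaged 23.3, 29.3, 185 and 569 CPM at the same times. Six3 differed, with 1.70 CPM at 24 h, 1.88 at 48 h, 23.7 at 96 h and 13.9 at 120 h. Cldn7 likewise averaged 0.855, 5.24, 41.5 and 16.7 CPM, Cldn6 15.8, 32.5, 91.3 and 28.5 CPM, and Elavl3 4, 14, 42.5 and 24.4 CPM at these times. For these 4 genes the mean was highest at 96 h, but their ranges over libraries at 96 h and 120 h overlapped. Dnmt3l averaged 402, 277, 45.3 and 11 CPM, and Zfp42 280, 103, 27.3 and 7.30 CPM, lower at each later time. Some risen genes averaged more in 2iL than at 96 h. Among them were Nefm (66 and 25.5 CPM), Hes1 (40 and 28), Sfrp1 (219 and 127), Axin2 (49.6 and 14.4) and Nkx1-2 (22.2 and 6.48). Others averaged less in 2iL, such as Sox1 (3.26 and 57.2 CPM), Six3 (0.52 and 23.7) and Map2 (2.64 and 28.3). How many of all risen genes did either was not counted.

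**Figure D5:**
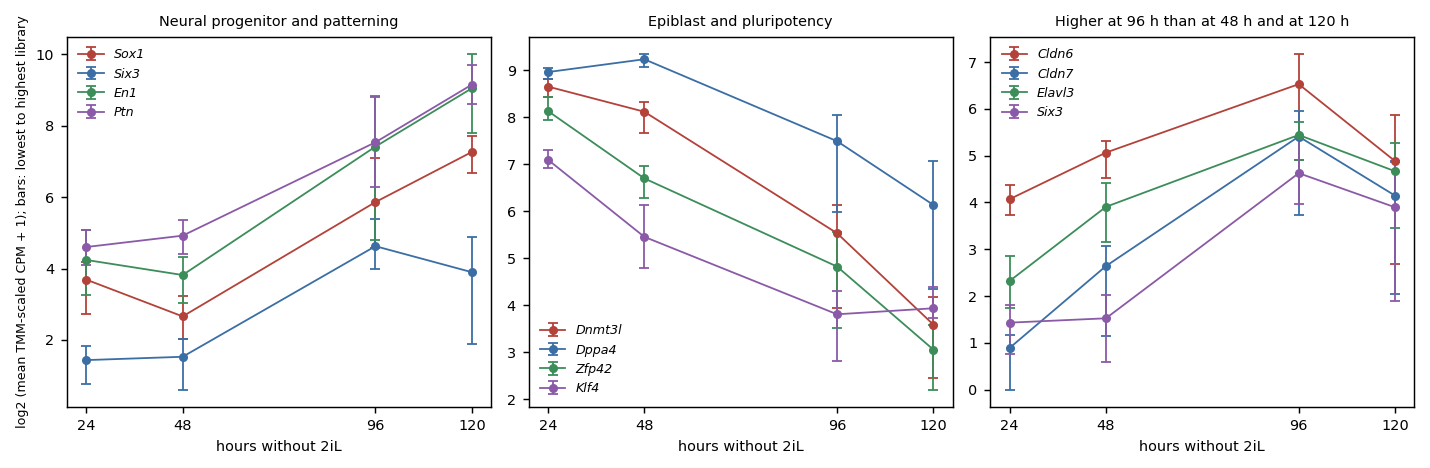
Mean levels of 11 genes at 24, 48, 96 and 120 h without 2iL, as log2 of (TMM-scaled CPM + 1), with bars from the lowest to the highest of 4 libraries. Sox1, En1 and Ptn are highest at 120 h, Dnmt3l, Dppa4 and Zfp42 are lowest there, and the means of Cldn6, Cldn7, Elavl3 and Six3 are highest at 96 h.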

How the data were processed

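The authors deposited raw read counts per gene for each of the 28 libraries, and 1 table of CPM (counts scaled to a common total) for the series. The submitters' processing notes name bcl2fastq, STAR 2.6.0a, HTSeq and the mm10 build. The role of each tool, any use of molecular identifiers and the strand of counting are not given in the sources used here. In 28 of 28 columns the deposited CPM equalled CPM computed from the counts within 1e-06. They served for that check and for symbols (30386 of 31053 genes, with 663 more from a table of gene names and 4 left without one). The HTSeq summary lines, which name no gene, stayed out of totals. Reads outside any gene were 6.68% to 7.95% of listed reads at 96 h and 6.81% to 7.05% at 48 h.

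Counts were fitted with edgeR 4.0.16 in R 4.3.3: genes kept by filterByExpr (minimum count 10, minimum total 15), TMM scaling, and a quasi-likelihood model of the 7 groups and 4 experiments over all 28 libraries, with 18 residual degrees of freedom, so that all groups share 1 estimate of spread. P-values were adjusted by Benjamini-Hochberg over 11080 genes. Fold changes are 96 h minus 48 h on the log2 scale, with a standard error. The procedure was tested on simulated data in which no library was set apart and changed genes had at least 10 CPM at 48 h. Of 50 genes each with a true change of 1.5, 2, 4 and 8-fold, it recovered 18, 38, 50 and 50. Among 10880 unchanged genes 7 were called. Values in single libraries are TMM-scaled CPM. Where a group had no counts a bound was taken at 3 counts over the group, and where it had 1 to 3 a ratio is given with an exact 95% interval. Reads were not shown to be separate molecules, so neither covers more than counting error. The bound takes the mean of the other group as measured and covers only the group without counts. Counts of 96 h and of 48 h libraries differed by more than sampling noise within each group (chi-square per gene 2.39 to 9.75 over 12 pairs, 0 pairs identical).

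The block follows the experiment number in the titles. Deviations from group means correlated at 0.0361 to 0.0759 between 96 h and 48 h libraries of the same experiment and at -0.0603 to 0.0528 between different ones. Members and gene lists (30 lists, 531 genes, 38 in more than 1 list) were chosen with earlier results of these data known. Besides list members, the genes named are the 12 largest rises and 12 largest falls among called genes with the same sign in 4 of 4 experiments and at least 10 CPM in the higher group. They also include the 6 called genes with the widest range over experiments and 4 called genes whose direction turned. Unnamed, ribosomal, mitochondrial and pseudogene entries were passed over, and a few list members are not reported here. Gene positions are from GENCODE M21 (GRCm38, the assembly of mm10), and promoters from RefSeq GRCm38.p6, where 8675 of the tested genes (78.3%) had one. Exons of 11 of 32 genes named by rule and 147 of 415 tested list members overlap those of another gene. Alternatives were fits without the block, with the 8 libraries alone, with other scalings, without the filter, with DESeq2 1.42.0, and with libraries left out.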

Additional observations from a re-analysis of the deposited data

Results flagged for a closer look

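In 298 groups of 4 libraries (named genes with at least 10 counts, and library measures), 33 held a library set apart from the other 3 by more than Dixon's critical value at the 95% level. The nominal rate of about 1 in 20 is for independent, normally distributed values and is no reference here. Some genes were named for their wide range over experiments, and genes of the same library are not independent. The 96 h library of experiment 3 was the one set apart in 21 of these, 19 times as the highest and 2 times as the lowest. It was the highest for patterning and progenitor genes, with 130 CPM of Otx1, 109 CPM of Sox21, 40.1 CPM of Pax5, 24.4 CPM of Wnt1, 15.7 CPM of Wnt8b, 51.0 CPM of Nr2f1, 54.1 CPM of Hes5, 445 CPM of Ptn and 40.1 CPM of Zfp503. Among signalling, cycle and adhesion genes it stood apart for Ccnd2 at 797 CPM, Id2 at 134 CPM, Fzd3 at 110 CPM, Nkd1 at 40.6 CPM, Jag1 at 54.9 CPM, Ajap1 at 55.8 CPM and Cdh6 at 40.6 CPM. The others for which it was highest were Fndc3c1 at 31.4 CPM, Ring1 at 23.5 CPM and Dab2 at 12.6 CPM. It was the lowest for the methyltransferase genes Dnmt3a at 110 CPM and Dnmt3b at 478 CPM.

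The remaining 96 h values lay in other experiments, with Nodal highest in experiment 1 at 7.34 CPM, Col4a1 lowest in experiment 2 at 24.7 CPM, the mitochondrial share highest in experiment 1 at 1.99%, and the share of the 3 most abundant genes highest in experiment 2 at 21.5%. At 48 h the highest value stood apart for Dll3 and Ephb1 in experiment 3 (23.8 and 8.55 CPM), for Krt8, Notch3 and Smad4 in experiment 2 (3.95, 22.7 and 62.2 CPM), and for Lifr, Zfp936 and Zfp984 in experiment 4 (66.2, 40.5 and 11.7 CPM).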

How the results depend on the processing

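The counts of 1451 rises and 1299 falls stayed within 1.5 times under every other scaling, filter, tool and choice of libraries run, except when a whole experiment was left out. Without experiments 1 to 4 in turn in both groups the rises ran from 882 to 1228 and the falls from 824 to 1066. The low end came without experiment 3 (882 and 824), followed by experiment 4 (949 and 848), and fewer samples then enter the fit. Without 1 library in turn they ran from 1061 to 1341 and from 965 to 1162. Without the replicate block they were 1277 and 1100, and of 138 named genes called with it, 10 lost the call without it: Ccnd1, Dmbx1, Dnmt1, Foxd3, Grhl2, L1td1, Lef1, Lin28a, Smad3 and Utf1. With only the 8 libraries and the block they were 1192 and 1160. There 1 named gene lost the call (Smad3) and 4 gained it, Otx2, Pou5f1, Tubb3 and Zfp992 among them. DESeq2 called 1519 and 1296. Library totals moved the median of all genes to 0.10, and with them Ccnd1 and Zfp534 were not called.

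Without the 96 h library of experiment 3, 19 of the 138 named genes lost the call, and without the 48 h library of experiment 3, 15 did. With another single library left out 1 to 9 lost it, Nes, Nrarp, Pax8, Cldn6 and Sp5 among them. With experiment 3 out of both groups 27 lost it, and these include Axin2, Neurod1, Pax5, Wnt1, Sox21 and Ring1. Among genes that kept the call, log2 fold changes moved to 3.05 for Hes5 and 3.92 for Ephb1 without 48 h replicate 3, to 3.81 for Irx3, 3.47 for Irx5 and 4.02 for Krt8 without 48 h replicate 2, and to 3.54 for Fzd3 without 48 h replicate 1. Signs turned only in genes without a call, and mostly with libraries left out. Dnmt3b (0.02) ran from -0.11 to 0.28 with 1 library left out, and was -0.04, -0.15 and -0.11 without experiments 1, 2 and 4. Pou3f1 (-0.01) was 0 with DESeq2 size factors, 0.08 with library totals, 0.01 without the filter and 0.01 in DESeq2, ran from -0.16 to 0.25 with 1 library left out, and was 0.27 without experiment 3. Dll3 ran from -0.32 to 0.23 with 1 library left out and was 0.33 without experiment 3, where Notch2 was -0.03 and Wnt8b -3.35. Notch2 ran from -0.03 to 0.21 and Wnt8b from -2.81 to 3.53. Hoxb1 ran from -0.45 to 2.13 and was -0.27 without experiment 4, Hoxb4 ran from -1.33 to 1.67 and was -1.66 without experiment 1, and Dll1 was 0.02 without experiment 2.

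The difference in genes detected was 666 to 855 with 1 library left out, and without 48 h replicate 2, 3 or 4 (759, 666 and 716) its exact permutation p became 0.0571. The difference in mitochondrial share ran from -0.825 to -0.438 percentage points and that in total count from 347000 to 519000. Exact permutation p was 0.0286 for the mitochondrial share without 48 h replicate 1 (-0.825) and for the total count without 48 h replicate 2 (519000). Lists with 0 calls in a direction also had 0 at an unadjusted p under 0.05 in edgeR and 0 calls in DESeq2, except DNA methylation rises (1 and 1), cholesterol falls (1 and 0) and p53 target rises (1 and 0). Depth limits what the test can show of small differences in genes with few counts.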
